A study of Saccharomyces cerevisiae with 24 samples.

Results

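The genes of amino acid biosynthesis outside the sulfur branch were followed in Saccharomyces cerevisiae, baker's yeast, as cultures were moved to heat or to cold. The set holds 50 named genes out of the 5449 yeast genes on the array, namely 49 enzymes and transporters of the biosynthetic routes and GCN4, the activator that controls most of them. Members were taken by name from the platform annotation, and no measured value entered the choice. By end product, 6 genes belong to arginine, 6 to histidine, 10 to the branched-chain amino acids, 7 to lysine, 10 to the aromatic amino acids and 10 to proline, serine and threonine, the last named "others" in the plots. Each of the 50 genes had 1 probe set, and none of these carried a suffix for shared transcripts or cross-hybridisation. None lay under the background bound of 6.53 on any array, so no member was lost to a filter on dim signals.

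The cells were of the laboratory strain S288C, with no mutation or added agent named. All cultures grew first at 28 °C in SD, a synthetic medium, to an optical density of 1. The heat culture then went to 37 °C, the cold culture went to 10 °C, and the control culture remained at 28 °C. Which amino acids the medium held is not given in the sources used here. Each of the 3 was sampled at 0, 15, 30 and 60 min and at 2, 4, 8 and 24 h. Every sample has 1 array, which makes 24. RNA of the heat samples passed through an additional amplification kit that the control and cold samples did not, so on any single later array kit and heat cannot be told apart. No time was repeated. The 3 arrays from 15 to 60 min (early) and the 3 from 2 to 8 h (middle) stand in for replicates, so p-values measure the spread between times and not that between independent cultures.

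As background, yeast makes every amino acid from central carbon intermediates and ammonium, and the enzymes of these routes are under general amino acid control. When an amino acid runs short, uncharged tRNA activates the kinase Gcn2, translation of GCN4 mRNA goes up, and Gcn4 protein raises transcription of biosynthetic genes across all pathways at once. Single pathways add their own controls, such as arginine repression through Arg80, Arg81 and Arg82, leucine control through Leu3 and lysine control through Lys14. Because Gcn4 is set largely by translation and by turnover of the protein, its mRNA level is no measure of its activity.

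Levels are log2 values as the authors deposited them, and a change is a difference of such values. A value of -1 is a 2-fold lower level. The array medians of yeast genes lay between 10.69 and 10.79, since the authors' method, RMA, makes arrays alike. A member's change is therefore relative to the other transcripts, and more or less RNA in each cell would leave no trace here. The members were bright genes. Their values ran from 7.02 to 14.79, and 20 of the 50 reached 14 on at least 1 array, near the top of the scale. Whether the brightest probe sets were near saturation was not tested.

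Before any shift the cold and control cultures held nearly the same levels of these genes, while the heat series did not. At 0 min the cold array differed from the control array by a median of 0.09 over the 50 members, with a range from -0.22 to 0.56, and by 2-fold in 0 of them. The heat array differed from the control array by at least 2-fold in 14 of the 50 members (in 2397 of all 5449 genes), with a median of 0.33 (0.29 over all genes). The lowest was HOM3, aspartate kinase, the entry to threonine and methionine, at 8.30 in the heat culture, 12.85 in the control and 13.03 in the cold. The dihydroxyacid dehydratase ILV3 differed by -3.62 between heat and control at 0 min, the histidinol phosphate aminotransferase HIS5 by -3.48, the threonine synthase THR4 by -3.34 and TRP3 of tryptophan synthesis by -2.15. PRO1, the kinase that opens proline synthesis, was the highest, at 12.71 against 10.76 in the control. These genes were singled out after their values were seen. Across all genes the 0 min difference of heat followed coding length (Spearman rho 0.39 over 5449 genes), and among the 50 members rho was 0.05, both over genes that share the same pair of arrays. Heat values below are therefore given relative to the heat culture's own 0 min array, unless stated otherwise, and a member such as HOM3 that sat in another signal range may not be comparable in size.

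**Figure D1:**
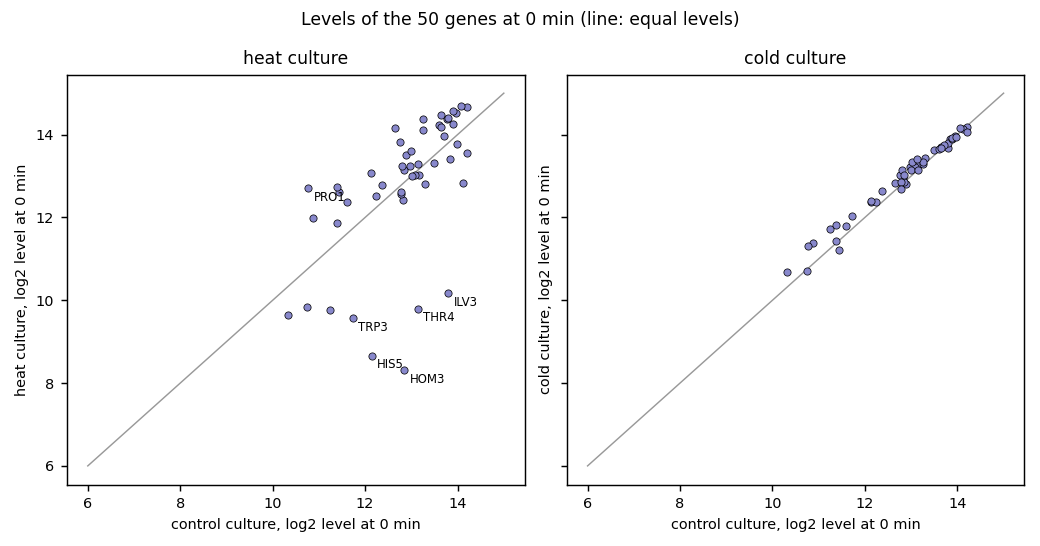
Log2 level of each of the 50 genes at 0 min in the heat culture (left) and the cold culture (right), plotted against its level in the control culture, 1 array each, with a line of equal levels. In the cold culture every point lies within 0.56 of the line, whereas in the heat culture 14 genes lie at least 1 log2 unit off it, HOM3 lowest.

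In heat, transcripts of these pathways were lower within the first hour and near their start again by 8 h. Relative to the heat culture's own 0 min array, the median over the 50 members was -0.32, -0.79 and -0.75 at 15, 30 and 60 min. It was then -0.46 at 2 h, -0.35 at 4 h and 0.01 at 8 h. Over all 5449 genes the median stayed between 0.00 and 0.04 at these times. At all 3 early times 43 of the 50 members stood below their start, and 45 stood lower at 30 min than at 15 min. The lowest of the 6 values up to 8 h came at 30 min in 15 members and at 1 h in 21. The level at 8 h was above that at 1 h in 41 members, and 36 were within 0.5 of their start at 8 h.

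The control culture also dipped in the first hour, by less. Its member medians were -0.05, -0.15 and -0.29 at 15 min, 30 min and 1 h, against all-gene medians of 0.00, -0.01 and -0.07. The fitted comparison called heat early takes the difference from the time-matched control over 15 to 60 min and subtracts that difference at 0 min. Its median over the members was -0.48, with 45 of 50 members negative, where the median over all genes was 0.05 and 45.5% of genes were negative. No member passed the threshold of an adjusted p of 0.05 in limma, beside a background of 0.0184% of all genes (1 of 5449). At an unadjusted p under 0.05 there was 1 member, PRO1, at -1.17 ± 0.45 (SE, adjusted p = 0.54), among 455 genes. The baseline rests on a single array per culture, and the median standard error of this comparison was 0.48 for the members and 0.34 for all genes.

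**Figure D2:**
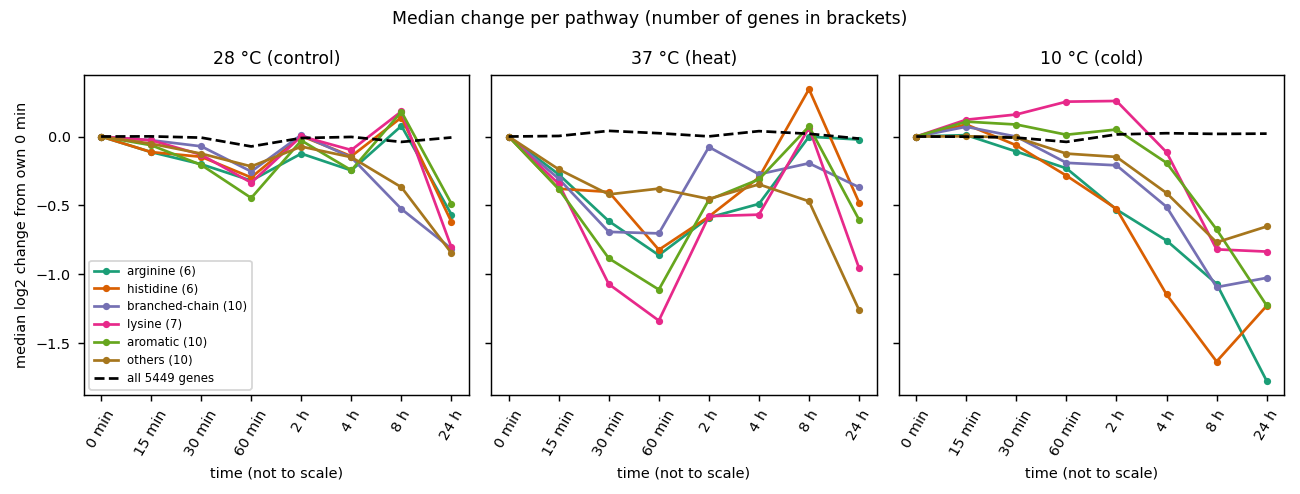
Median log2 change from each culture's own 0 min array for the 6 pathways (coloured lines, gene numbers in brackets) and all 5449 genes (dashed), by sampling time, in the control, heat and cold cultures. In heat all 6 pathways dip in the first hour, lysine deepest at -1.34, and in cold they decline from 2 h to 8 h, histidine deepest at -1.63, while the all-gene median stays near 0.

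In cold the members hardly moved at first and lay lower from 2 h on. Their median change from the cold culture's own start was 0.07 at 15 min, 0.04 at 30 min and -0.11 at 1 h, and 46 of the 50 stayed within 0.5 of their start at all 3 times. The later medians were -0.12, -0.31, -0.98 and -1.06 at 2, 4, 8 and 24 h, while the all-gene medians were 0.02 at each of these times. In 46 of the 50 members the level was lower at 4 h than at 2 h and lower again at 8 h, and 23 members were at least 2-fold below their start at 8 h (46% of the members, against 11.9% of all genes). From 8 h to 24 h 18 members went lower still.

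In cold early 38 of the 50 members had a positive value, with a median of 0.18 (0.01 over all genes), and in limma no member passed, as did 0% of all genes. At an unadjusted p under 0.05 there were 0 members and 519 genes. The member with the highest value was ARO7, chorismate mutase, at 1.00 ± 0.55 (adjusted p = 0.59), and the next 2 positive ones by p were PRO1 at 0.53 ± 0.45 (adjusted p = 0.79) and ILV6 at 0.45 ± 0.31 (adjusted p = 0.70). LEU1 was at -0.22 ± 0.39 (adjusted p = 0.96), SER1 at -0.06 ± 0.25 (adjusted p = 1) and HIS6 at -0.06 ± 0.39 (adjusted p = 1). LEU9 was at 0.48 ± 0.86 (adjusted p = 0.96) and SER33 at -0.06 ± 0.55 (adjusted p = 1). In cold middle (2 to 8 h) the median was -0.40 with 40 of 50 members negative, and again no member passed in limma beside 0% of all genes, with 7 members and 1143 genes at an unadjusted p under 0.05. The lowest by p were ARG3 at -3.17 ± 0.82 (adjusted p = 0.07), HIS6 at -1.41 ± 0.39 (adjusted p = 0.077) and LEU1 at -1.32 ± 0.39 (adjusted p = 0.09), and on the positive side SER3 stood at 0.35 ± 0.27 (adjusted p = 0.51) and ARO7 at 0.20 ± 0.55 (adjusted p = 0.90). Without the 2 h arrays, 4 members passed in cold middle, namely ARG3, HIS6, HIS7 and LEU1, among 418 genes.

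Set directly against each other without the 0 min arrays, the cold windows differed in 10 members, all lower from 2 to 8 h than from 15 to 60 min relative to the control. In limma 24.7% of all genes passed in this comparison, against 20% of the members, so with both directions together the members were not called more often than other genes. Counting lower values alone, 11.5% of all genes passed, against the same 20% of the members. The median over the members was -0.61, with 46 of 50 negative, where the median over all genes was 0.01. In 28 of the 50 members all 3 arrays from 2 to 8 h lay below all 3 from 15 to 60 min in the cold culture, and this was so in 31.1% of all genes. The 10 members were ARG3, ARG8 and CPA1 of arginine, HIS5, HIS6 and HIS7 of histidine, LEU1 and BAT1 of the branched-chain amino acids, PRO2 of proline and SER1 of serine. No member of the lysine or aromatic groups and not GCN4 was among them. Of the aromatic genes, ARO7 and TRP2 did pass when the 2 h arrays were left out, and TRP2 also without 8 h. The number depended on single times. It was 2 without the 15 min arrays (8.41% of all genes passed), 2 without 30 min (6.02%), 6 without 60 min (17.6%), 14 without 2 h (32.7%), 1 without 4 h (4.4%) and 7 without 8 h (15.3%). ARG3 passed under each of the 12 alternatives that were run, HIS6 under 11, and the other 8 under 6 to 8. Among the 12, leaving out suffixed probe sets, dim genes or the 24 h arrays could not change a member's value.

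**Figure D3:**
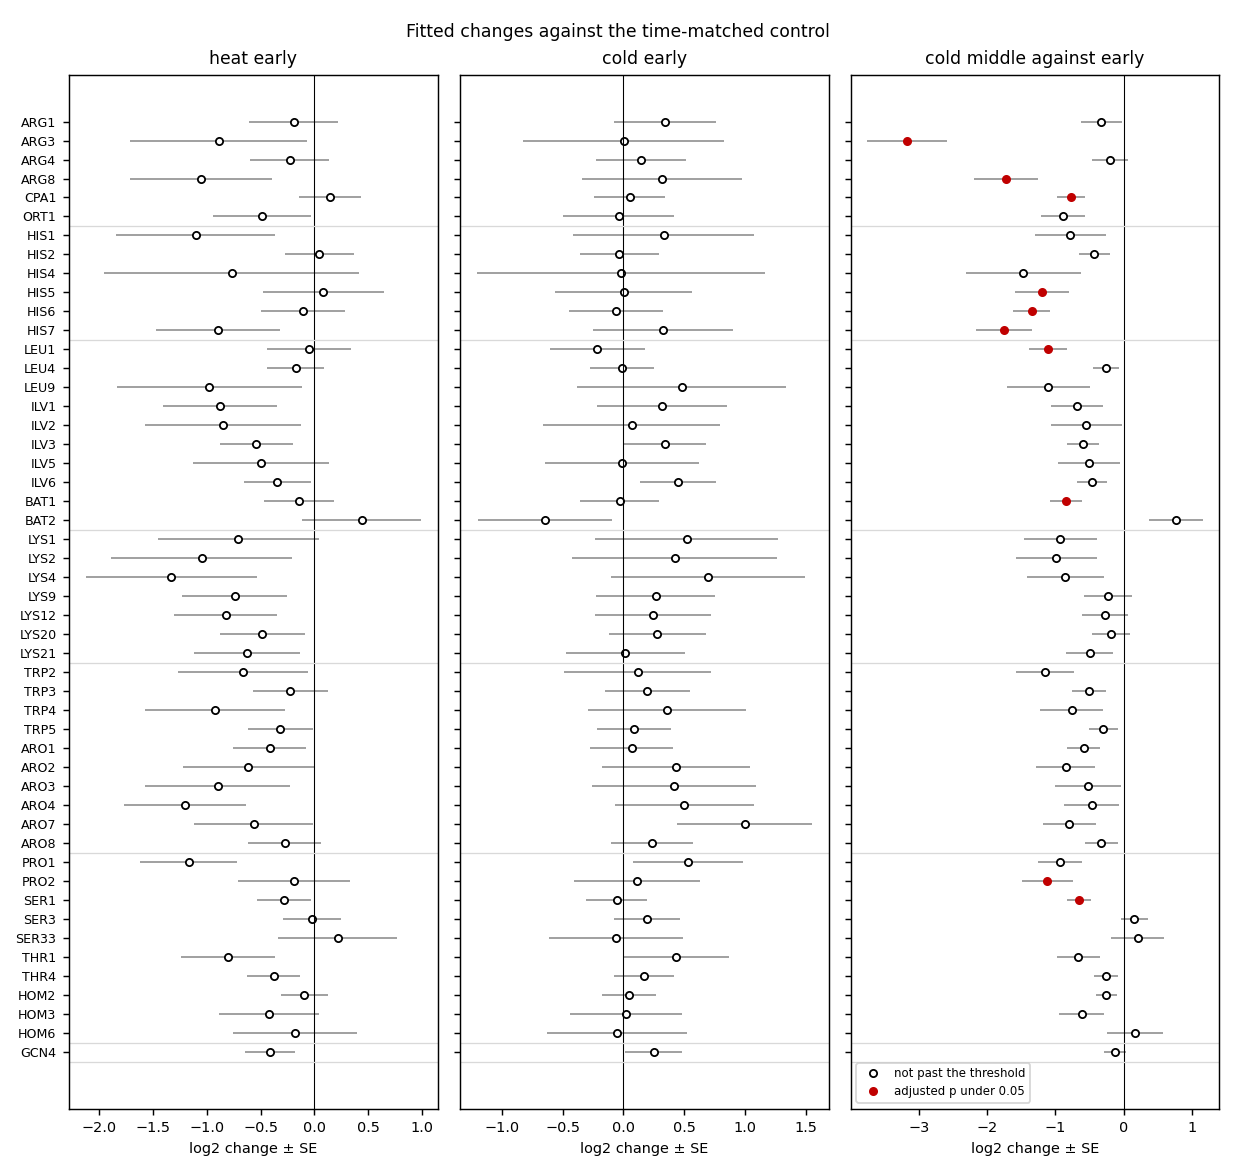
Fitted log2 change with its standard error for each of the 50 genes, grouped by pathway, in heat early, cold early and cold middle against early. Filled points mark an adjusted p under 0.05, which 10 genes reach in the right panel and none in the others.

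Arginine genes held the single deepest decline in cold. ARG3, ornithine carbamoyltransferase, had log2 levels in the cold culture of 13.30, 13.30, 13.16 and 12.83 at 0, 15, 30 and 60 min, then 11.19, 9.71 and 9.11 at 2, 4 and 8 h and 9.22 at 24 h. In the control culture it stayed between 12.86 and 13.28 up to 8 h. The middle cold arrays thus lay clear of all early cold arrays and of all control arrays up to 8 h, and the fitted fall from the early to the middle window was -3.17 ± 0.58 (adjusted p = 0.0055). ARG8, the acetylornithine aminotransferase of the mitochondrion, went from 12.63 at 0 min and 12.75, 12.73 and 12.32 in the early window to 11.80, 10.90 and 10.16 in the middle one, a fall of -1.73 ± 0.47 (adjusted p = 0.022). CPA1, the small subunit of the arginine-specific carbamoyl phosphate synthetase, fell by less, with -0.77 ± 0.20 (adjusted p = 0.021). ORT1, which exports ornithine from the mitochondrion, had a value of -0.89 ± 0.32 and did not pass (adjusted p = 0.061).

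The last steps of the same pathway went otherwise. ARG1, argininosuccinate synthetase, was at 14.18 at 0 min in cold, between 14.29 and 14.39 from 15 min to 4 h, at 13.51 at 8 h and at 11.17 at 24 h. ARG4, argininosuccinate lyase, stayed between 13.49 and 13.83 on all 8 cold arrays. Neither passed in cold middle against early, at -0.33 for ARG1 and -0.20 for ARG4. In heat ARG3 was at -1.33 relative to its start at 30 min, at -1.40 at 1 h and at -0.04 at 8 h. ARG8 reached -1.84 at 1 h in heat and was at -0.52 at 8 h. In heat early ARG8 was the lowest arginine gene at -1.05 ± 0.66 (adjusted p = 0.66) and CPA1 the highest at 0.15 ± 0.29 (adjusted p = 0.89). In cold early ARG1 was the highest at 0.34 ± 0.42 (adjusted p = 0.90) and ORT1 the lowest at -0.04 ± 0.46 (adjusted p = 1).

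The 6 histidine genes were all below their start from 2 h on in cold, and all 6 had a negative value in cold middle against early, with a median of -1.28. HIS7, the imidazole glycerol phosphate synthase, stood in the cold culture at 11.79 at 0 min, at 12.08, 12.00 and 11.62 in the early window and at 10.98, 10.25 and 9.88 in the middle one, with a fall of -1.75 ± 0.41 (adjusted p = 0.013). HIS6, the isomerase of a middle step, went from 10.67 at 0 min through 10.77, 10.68 and 10.19 to 9.48, 9.02 and 8.83, a fall of -1.35 ± 0.27 (adjusted p = 0.0076). Both windows were separate for both genes. HIS5 fell by less, at -1.20 ± 0.40 (adjusted p = 0.047), and the control, which enters this value, had HIS5 at 0.80 above its start at 8 h.

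HIS4, which encodes a multifunctional enzyme of several steps, was at -2.60 at 8 h in cold, the lowest change of the pathway, but its fitted value of -1.47 ± 0.84 did not pass (adjusted p = 0.21). Its heat arrays were uneven. Its changes from 0 min in heat were -0.36, -0.80 and -1.70 in the first hour, then -0.69 at 2 h, -1.83 at 4 h, 0.96 at 8 h and -1.61 at 24 h. HIS1, the phosphoribosyltransferase of the first committed step, was the lowest histidine gene in heat early at -1.11 ± 0.74 (adjusted p = 0.67), with a change from 0 min of -1.88 at 1 h. HIS5 was the highest at 0.08 ± 0.56 (adjusted p = 0.97). In cold early HIS1 was the highest of the pathway, at 0.33 ± 0.74 (adjusted p = 0.98).

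Among the branched-chain genes, 9 of 10 had a negative value in cold middle against early. LEU1, the isopropylmalate isomerase of leucine synthesis, was at 13.66 at 0 min in cold, at 13.62, 13.48 and 13.25 in the early window and at 12.94, 12.07 and 10.99 in the middle one, with a fall of -1.10 ± 0.28 (adjusted p = 0.017). The mitochondrial aminotransferase BAT1 went from 13.79, 13.70 and 13.43 to 13.15, 12.41 and 11.91, with a fall of -0.85 ± 0.23 (adjusted p = 0.022). Both genes were also lower in the control at 8 h, where LEU1 had a change of -1.13 and BAT1 of -1.05 from 0 min, against -2.67 and -1.87 in cold. The acetolactate synthase subunits ILV2 (catalytic) and ILV6 (regulatory), the reductoisomerase ILV5 and ILV3 had values between -0.60 and -0.47, none past the threshold.

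In heat the branched-chain genes differed from one another. LEU9, an isopropylmalate synthase, was at -2.31 at 30 min, with -0.66 at 15 min and -0.88 at 1 h, and its heat early value was -0.98 ± 0.86 (adjusted p = 0.74). ILV1, threonine deaminase, which opens isoleucine synthesis, was at -1.59 at 30 min and at -0.21 at 2 h, and its value in heat middle against early was 0.87 ± 0.38 (adjusted p = 0.23). On the 4 h heat array ILV2 stood at -1.94, ILV5 at -1.48 and the homoserine dehydrogenase HOM6 at -1.69, although all 3 were within 0.05 of their start at 2 h. At 8 h ILV2 was at 0.20, ILV5 at 0.36 and HOM6 at -0.20. These genes were chosen after their values were seen, and with 1 array per time the 4 h values have no replicate.

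The lysine genes had the lowest pathway median in heat at 30 min and 1 h, and none passed in cold. All 7 were below their start at 15 min, 30 min, 1 h, 2 h and 4 h in heat, with medians of -0.34, -1.07, -1.34, -0.58 and -0.57. LYS4, homoaconitase, had heat levels of 12.52 at 0 min, 11.84, 10.36 and 10.64 in the first hour, 11.97, 11.84 and 12.61 from 2 to 8 h and 11.56 at 24 h, while its control level lay between 11.77 and 12.23 up to 8 h. The heat early value of LYS4 was the lowest of all members at -1.33 ± 0.80 and did not pass (adjusted p = 0.65). LYS20 was the highest of its pathway at -0.48 ± 0.40 (adjusted p = 0.73). In cold all 7 lysine genes were above their start at 30 min, 1 h and 2 h, by a median of 0.26 at 2 h, when the arginine and histidine medians were already at -0.53. They stood at a median of -0.11 at 4 h and -0.82 at 8 h. LYS4 had the highest cold early value of the pathway at 0.70 ± 0.80 (adjusted p = 0.89) and LYS21 the lowest at 0.02 ± 0.49 (adjusted p = 1).

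The aromatic genes were also low in heat and late in cold. In heat all 10 were below their start from 15 min to 4 h, with medians of -0.38, -0.88 and -1.11 in the first hour. ARO4, a DAHP synthase that opens the shikimate route, reached -2.24 at 1 h, and its heat early value was -1.21 ± 0.57 (adjusted p = 0.59). TRP3 was the highest of the pathway at -0.22 ± 0.35 (adjusted p = 0.86). TRP4, anthranilate phosphoribosyltransferase, was at -1.46 at 1 h in heat and still at -1.09 at 4 h. In cold ARO7 stood above its start in the first hours, with levels of 10.70 at 0 min, then 11.35, 11.53, 11.46 and 11.29 up to 2 h, 10.58 at 4 h, 9.72 at 8 h and 9.39 at 24 h. All 10 aromatic genes were below their start at 8 h in cold, with a median of -0.67. TRP2, the anthranilate synthase subunit, had the lowest cold middle against early value of the pathway at -1.15 ± 0.43 and did not pass (adjusted p = 0.068). In cold early all 10 had a positive value, lowest in ARO1 at 0.07 ± 0.34 (adjusted p = 1).

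The genes of proline, serine and threonine synthesis varied among themselves, with values in heat early from -1.17 to 0.22 and a median of -0.24. PRO1, glutamate kinase, had heat levels of 12.71 at 0 min, 11.91, 10.93 and 11.47 in the first hour and 12.17, 12.39 and 12.34 from 2 to 8 h. In cold it was at 11.32 at 0 min and then at 11.61, 11.85 and 11.79 in the first hour, above its start, before 11.34, 10.72 and 10.42. THR1, homoserine kinase, had a heat early value of -0.80 ± 0.44 (adjusted p = 0.62), with a change from 0 min of -1.39 at 1 h. The proline gene PRO2, glutamyl phosphate reductase, fell between the cold windows, from 0.00, 0.03 and -0.12 relative to its start to -0.37, -0.95 and -1.62, a fitted value of -1.12 ± 0.37 (adjusted p = 0.045). SER1, phosphoserine aminotransferase, fell by less, at -0.66 ± 0.18 (adjusted p = 0.021), and stood at -0.62 in the control at 8 h against -1.52 in cold. HOM6 stayed within 0.13 of its start in cold up to 8 h.

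GCN4 itself kept within 0.65 of its start on every array. In heat its level was 13.76 at 0 min, 13.31, 13.11 and 13.30 in the first hour, 13.64, 13.52 and 13.88 from 2 to 8 h and 14.25 at 24 h. In cold it lay between 13.93 and 14.11 up to 8 h and at 14.31 at 24 h. Its heat early value was -0.41 ± 0.23 (adjusted p = 0.63), its cold early value 0.25 ± 0.23 (adjusted p = 0.82), its heat middle value -0.10 ± 0.23 (adjusted p = 1) and its cold middle value 0.12 ± 0.23 (adjusted p = 0.85). From the early to the middle window it had 0.32 ± 0.17 in heat (adjusted p = 0.29) and -0.13 ± 0.17 in cold (adjusted p = 0.59).

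**Figure D4:**
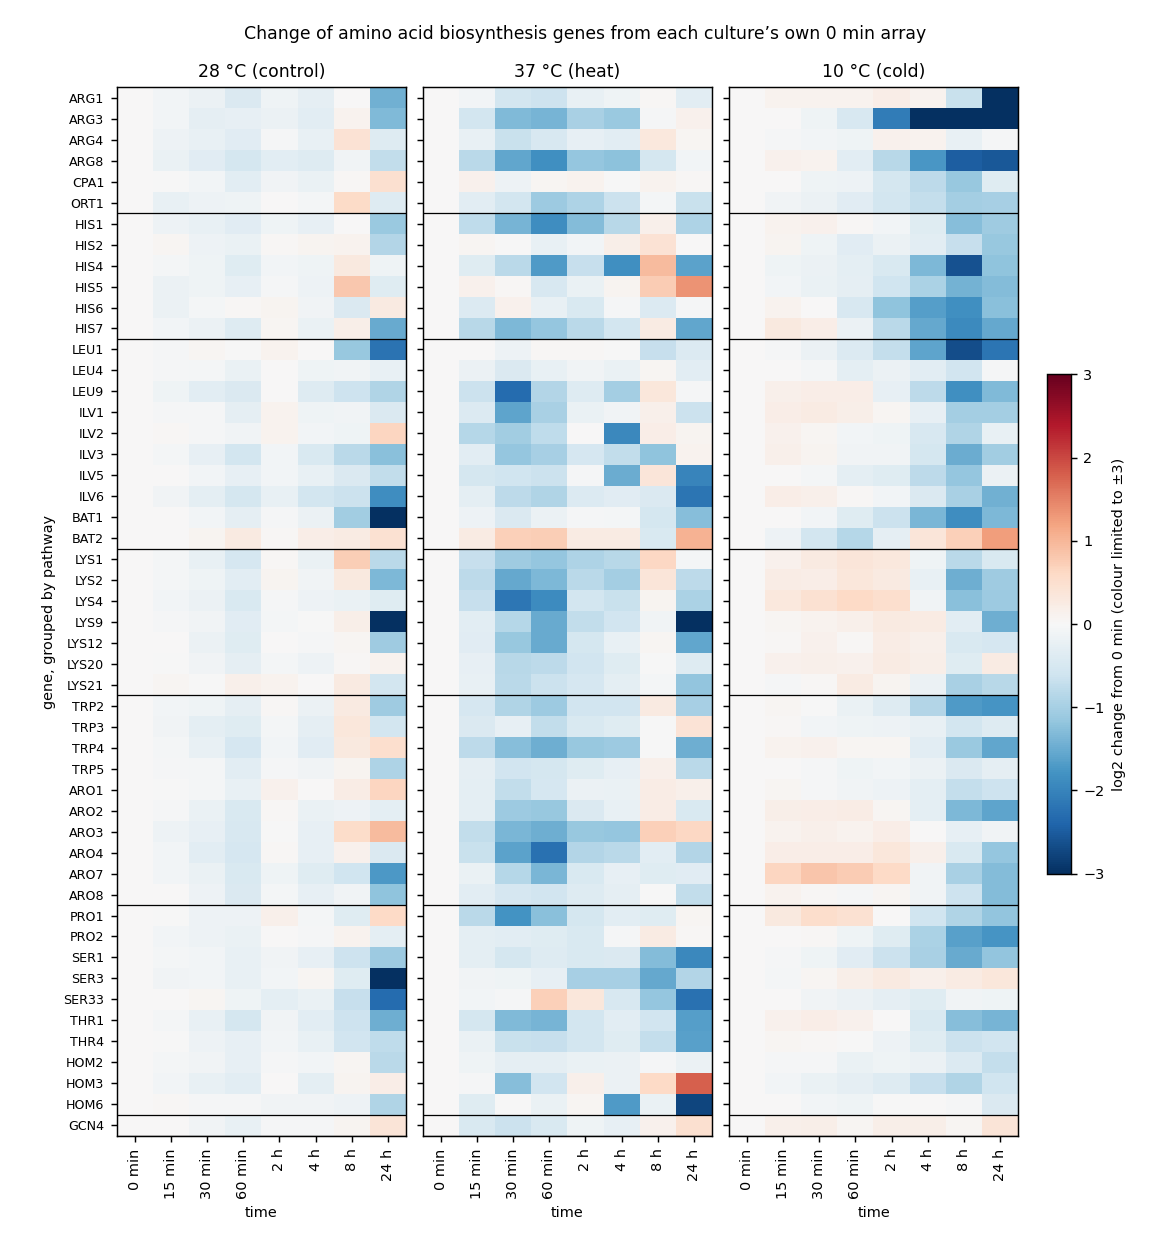
Log2 change of each of the 50 genes from the 0 min array of its own culture, by time (columns) and pathway (blocks of lines), in the control, heat and cold cultures, with blue lower and red higher and colour limited to 3 in either direction. The heat panel is bluest at 30 min and 1 h, and the cold panel at 8 h and 24 h. At the dark end are ARG3 in cold and, at 24 h, ARG1 in cold, BAT1 in the control and LYS9 in both control and heat.

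Heat middle, over 2 to 8 h, had a median of -0.21 over the members with 41 of 50 negative, and no member passed in limma beside a background of 0.0551% of all genes. At an unadjusted p under 0.05 there were 1 member and 300 genes. That member was SER3, a phosphoglycerate dehydrogenase that opens serine synthesis, at -1.05 ± 0.27 (adjusted p = 0.34). Heat middle against early, which uses no 0 min array, had a median of 0.23 with 40 of 50 positive, and no member passed beside 0.147% of all genes, with 3 members and 1098 genes at an unadjusted p under 0.05. PRO1 was at 0.85 ± 0.32 (adjusted p = 0.19) and THR1 at 0.67 ± 0.31 (adjusted p = 0.25), and SER3 ran the other way at -1.03 ± 0.19 (adjusted p = 0.09). BAT2 was at -0.58 ± 0.39 (adjusted p = 0.40) and HOM6 at -0.31 ± 0.41 (adjusted p = 0.67). Without the 2 h arrays SER3 passed, beside 2.73% of all genes. The highest members in heat middle were HOM3 at 0.26 ± 0.46, BAT1 at 0.21 ± 0.33 and CPA1 at 0.16 ± 0.29, each with an adjusted p of 1, and ORT1 stood at -0.72 ± 0.46 (adjusted p = 0.98) and SER1 at -0.41 ± 0.25 (adjusted p = 0.96).

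Heat and cold were then set against each other. In heat against cold early the median over members was -0.65, with 44 of 50 negative (0.03 and 48.4% over all genes). PRO1 alone passed among the members, at -1.70 ± 0.45 (adjusted p = 0.029), which is 2% of the members beside 16.2% of all genes. PRO1 was at -1.78 from its own start at 30 min in heat and at 0.53 in cold, and the early arrays of the cultures lie on opposite sides of their starts. It did not pass without the 30 min, the 60 min or the 4 h arrays, nor without the 0 min baseline, where its difference shrank to -0.31 ± 0.23 (adjusted p = 0.22). The number of members past the threshold was 0 without 30 min, 60 min or 4 h (2.99%, 8.92% and 8.17% of all genes), 4 without 15 min (16.9%), 3 without 2 h (19.9%) and 13 without 8 h (23.2%). ARO4 at -1.71 ± 0.57 (adjusted p = 0.061) and THR1 at -1.24 ± 0.44 (adjusted p = 0.073) did not pass, nor did GCN4 at -0.66 ± 0.23 (adjusted p = 0.075). On the positive side SER33 was at 0.28 ± 0.55 (adjusted p = 0.76) and LEU1 at 0.17 ± 0.39 (adjusted p = 0.80).

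In heat against cold middle, SER3 alone passed among the members (2%, beside 6.5% of all genes). Its heat levels were 13.25 at 0 min, 13.14, 13.13 and 13.01 in the first hour and 12.25, 12.26 and 11.71 from 2 to 8 h, and its cold levels lay between 13.10 and 13.41 up to 8 h. The middle arrays of heat thus lay below every early heat array and every cold array, and the difference between heat and cold was -1.40 ± 0.27 (adjusted p = 0.025). SER3 did not pass without the 30 min or the 4 h arrays, nor with the 24 h arrays in the window, with adjusted p up to 0.59. Without the 2 h arrays 7 members passed, 6 of them higher in heat, beside 11.3% of all genes. In the other direction LEU1 had 1.43 ± 0.39 (adjusted p = 0.051), HIS6 1.26 ± 0.39 (adjusted p = 0.075) and BAT1 1.09 ± 0.33 (adjusted p = 0.069), none past the threshold. The next negative ones by p were ARO4 at -0.68 ± 0.57 (adjusted p = 0.51) and LYS9 at -0.54 ± 0.49 (adjusted p = 0.55). GCN4 was at -0.21 ± 0.23 (adjusted p = 0.62).

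Several steps are carried out by 5 pairs of isoenzymes in the set, and their members did not always keep together. Each gene has a probe set of its own, and cross-hybridisation between the copies was not tested. BAT1 and BAT2, the mitochondrial and cytosolic branched-chain aminotransferases, lay on opposite sides of their start in cold from 4 h on and in heat at every time after 0 min but 8 h. In cold BAT2 had levels of 11.23 at 0 min, 11.07, 10.68 and 10.36 in the first hour, 10.96, 11.59 and 11.94 from 2 to 8 h and 12.47 at 24 h. Both genes were below their start in cold at 30 min, 1 h and 2 h, and from 4 h on BAT2 was above its start and BAT1 below. In heat BAT2 was 0.70 above its start at 30 min and 0.73 at 1 h, when BAT1 was at -0.44 and -0.17. None of the BAT2 values against the control passed, at 0.44 ± 0.55 (adjusted p = 0.81) in heat early, -0.64 ± 0.55 (adjusted p = 0.80) in cold early and 0.76 ± 0.39 (adjusted p = 0.17) in cold middle against early. Heat against cold early for BAT2 was 1.08 ± 0.55 (adjusted p = 0.19).

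SER3 and SER33, the serine pair, also parted. In heat SER33 was 0.71 above its start at 1 h and 0.35 at 2 h, and at -1.16 at 8 h, whereas SER3 was at -0.24 at 1 h, at -1.01 at 2 h and at -1.54 at 8 h. The heat early value of SER33 was 0.22 ± 0.55 (adjusted p = 0.91). In cold both stayed within 0.37 of their start up to 8 h, and cold middle against early gave 0.15 ± 0.19 for SER3 (adjusted p = 0.58) and 0.20 ± 0.39 for SER33 (adjusted p = 0.73). LEU9 was lower than LEU4 relative to its start at 30 min in heat (-2.31 and -0.45) and at 8 h in cold (-1.84 and -0.57). LEU4, the main isopropylmalate synthase, had no value beyond 0.28 in size in the fitted comparisons used here. Its heat middle value was 0.54 when the 0 min difference was not subtracted. The homocitrate synthases LYS20 and LYS21 ran together up to 4 h in heat and parted at 24 h (-0.38 and -1.19). Between the DAHP synthases, ARO3 was at 0.71 and ARO4 at -0.32 at 8 h in heat, after both had been lower than -1.3 at 30 min. The differences within pairs were not tested.

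**Figure D5:**
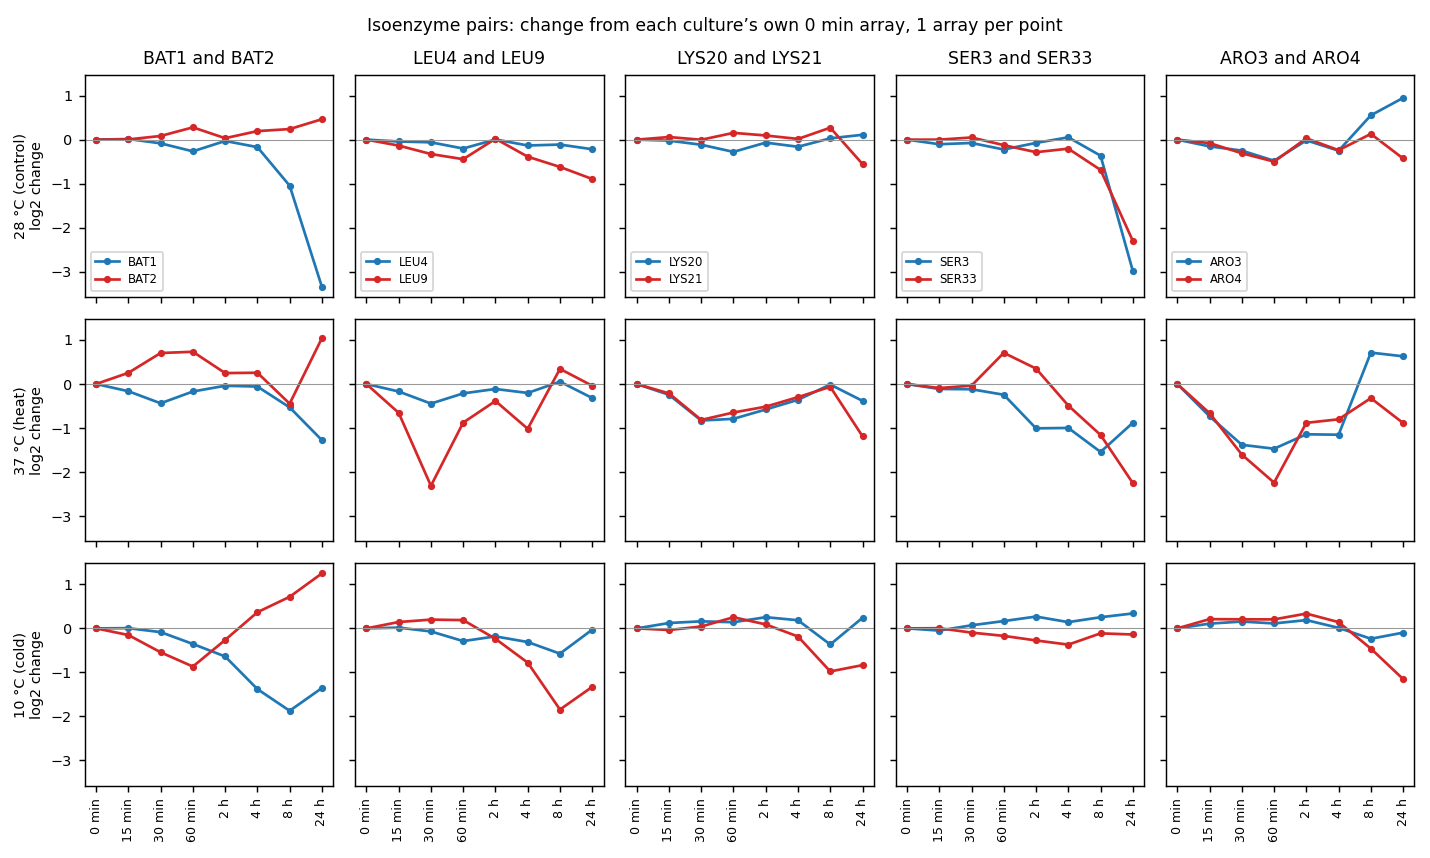
Log2 change of 5 isoenzyme pairs from the 0 min array of each culture by sampling time, 1 array per point, with the control, heat and cold cultures in the upper, middle and lower panels. BAT1 and BAT2 lie on opposite sides of 0 in cold from 4 h on, and SER3 and SER33 end near -3.0 and -2.3 in the control at 24 h but stay near 0 in cold.

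The control culture was far from its own early state at 24 h, and some members had moved by 8 h. On the single 8 h array LEU1 was at -1.13, BAT1 at -1.05 and HIS5 at 0.80 from 0 min. From 0 to 60 min to 2 to 8 h no member passed in limma, beside 0% of all genes, with 2 members and 458 genes at an unadjusted p under 0.05, and the median of the members was 0.05. SER33 had the lowest value at -0.37 ± 0.12. SER1 and HOM6 stood at -0.24 ± 0.13 and -0.11 ± 0.06, while ORT1 had 0.30 ± 0.16, LYS2 0.21 ± 0.11 and ARO1 0.20 ± 0.08, each of the 6 with an adjusted p of 0.58. GCN4 was at 0.10 ± 0.08 (adjusted p = 0.66). At 24 h, 34 of the 50 members passed against the early arrays (68%), 26 lower and 8 higher. The background was 70.7% of all genes, with 35.4% lower and 35.3% higher. Both directions together, the share called was near that of other genes, but the calls among members were mostly lower. The member median was -0.63, against 0.01 over all genes. The 24 h value is 1 array and is assumed to vary like the others. BAT1 had a control level of 13.79 at 0 min, 12.74 at 8 h and 10.45 at 24 h, a fall of -3.26 ± 0.33 (adjusted p = 5.1e-05). LYS9, the saccharopine reductase, went from 13.89 to 10.57 (-3.20 ± 0.15, adjusted p = 1.2e-06) and SER3 from 12.81 to 9.82 (-2.88 ± 0.16, adjusted p = 2.2e-06). The highest were ARO3 at 1.17 ± 0.28 (adjusted p = 0.0062), the multifunctional shikimate enzyme ARO1 at 0.71 ± 0.12 (adjusted p = 0.001) and TRP4 at 0.70 ± 0.25 (adjusted p = 0.034). GCN4 rose by 0.48 ± 0.12 (adjusted p = 0.0074).

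The cultures were alike in part at 24 h. The control had a member median of -0.75 from 0 min, heat one of -0.44 and cold one of -1.06, with 18, 14 and 28 members at least 2-fold below their start. In all 3 cultures 31 members were below their start, 6 of them by at least 2-fold, namely HIS7, ILV6, BAT1, LYS9, SER1 and THR1. BAT2 and GCN4 were above it in all 3. These counts have no all-gene share beside them, so they do not set the members apart from other genes. By the limma threshold, 35.4% of all genes were lower at 24 h in the control. The change of SER3 was 0.34 in cold, -0.88 in heat and -2.98 in the control, and HOM3 stood at 1.80 in heat against 0.21 in the control and -0.59 in cold. Without a second array at 24 h in any culture these differences were not tested.

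Other genes of amino acid metabolism were counted for comparison, beside the 24.7% of all genes that passed in cold middle against early, the 16.2% in heat against cold early and the 70.7% at 24 h in the control. Of 10 further biosynthetic steps, 3 passed in cold middle against early, all of them lower. They were SER2, the phosphoserine phosphatase, at -1.96 ± 0.26 (adjusted p = 0.0026), HIS3 at -1.92 ± 0.55 (adjusted p = 0.027) and PHA2 of phenylalanine synthesis at -0.76 ± 0.22 (adjusted p = 0.027). In heat against cold early 2 of the 10 passed, SER2 at -1.24 ± 0.37 (adjusted p = 0.043) and the threonine aldolase GLY1 at -1.22 ± 0.34 (adjusted p = 0.035). Of 9 genes by which nitrogen enters and is passed on, 2 passed in cold middle against early, both higher. They were the glutamate dehydrogenase GDH3 at 2.73 ± 0.55 (adjusted p = 0.0072) and the alanine aminotransferase ALT1 at 1.59 ± 0.26 (adjusted p = 0.0038). Of 12 regulators 2 passed there. ARG82 of the arginine control was higher by 1.12 ± 0.29 (adjusted p = 0.019), and BAS1, an activator of histidine and purine genes, was at -2.10 ± 0.59 (adjusted p = 0.025). Of 8 genes of amino acid breakdown 1 passed, the glutamate dehydrogenase GDH2, higher by 1.13 ± 0.24 (adjusted p = 0.0085). Of these 8, 5 had a positive value, up to 2.42, and 3 a negative one. ARO9 and ARO10, which did not pass, stood 4.45 and 4.42 above their start at 8 h in cold.

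BAS1 had changes from its start in cold of 0.99, 0.81 and 0.55 in the first hour and of -0.18, -0.65 and -1.38 from 2 to 8 h. The proline oxidase gene PUT1, on the breakdown side, was 1.92, 1.84 and 1.96 above its start from 2 to 8 h in heat, and heat against cold middle gave 2.37 ± 0.53 (adjusted p = 0.03). ALT1 passed in that comparison at -1.56 ± 0.37 (adjusted p = 0.034), and ARG82 in heat against cold early at 1.95 ± 0.41 (adjusted p = 0.013). Without the 0 min baseline the value of ARG82 was -0.20 ± 0.20 and did not pass (adjusted p = 0.39). Its level on the single heat 0 min array was 6.52, under the background bound of 6.53. At 24 h in the control 8 of the 10 further steps, 6 of the 9 nitrogen genes, all 12 regulators and 5 of the 8 breakdown genes passed, beside that background of 70.7%.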

How the data were processed

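RNA levels were measured on 24 1-colour arrays, 8 per temperature. The authors made the deposited log2 values with RMA, per the submitters' processing notes. Neither its version nor the arrays it was run over are stated in the sources used here. Probe sets were named through the platform annotation. Of 10928, 5498 had 1 yeast gene, 1746 belonged to other species and 3683 were unnamed. Probe sets of a gene were averaged. The background bound leaves 95% of the other-species probe sets, by mean level, under it.

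limma 3.58.1 in R 4.3.3 (lmFit, eBayes) was fitted to all 24 arrays, with time as a block and terms for heat and cold at 0 min, early, middle and 24 h (8 residual and 3.41 prior degrees of freedom). The 8 control arrays were fitted apart. Benjamini-Hochberg adjustment ran over 5449 genes, with a threshold of 0.05. Fits were also run on simulated data, and as no outcome is given here, this lends the p-values no weight. The members, lists and tests were chosen with earlier results of these data known.

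Named with full values are GCN4, the isoenzyme pairs, per comparison the 3 highest and 3 lowest members past the threshold (places left over go to the smallest p in that direction) and the extremes of each pathway in the early comparisons. Other named members were chosen after their values were seen. Of 42 further genes listed, 39 were found by name, and the other 3 are not analysed here. The number of arrays limits the precision. Alternatives tried were no 0 min baseline, each series against its own start without the control, a 2 to 24 h window, renewed quantile normalization, leaving out suffixed probe sets or dim genes, a mean trend with robust fitting, and leaving out each time.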

Additional observations from a re-analysis of the deposited data

Results flagged for a closer look

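A difference between the responses to heat and to cold, tested as heat minus cold in limma with adjustment over all 5449 genes, brought 7 results to attention. In the early window PRO1 was lower in heat by a log2 difference of -1.70, SER2 by -1.24 and GLY1 by -1.22, and ARG82 was higher by 1.95. The ARG82 value rests on a heat 0 min level of 6.52, under the background bound of 6.53. In the middle window SER3 was lower in heat at -1.40 and ALT1 at -1.56, and PUT1 was higher at 2.37. Without the 0 min baseline PRO1 was at -0.31 and ARG82 at -0.20, neither past the threshold, while the other 5 kept their sign and passed, with SER2 at -1.31, GLY1 at -3.31, SER3 at -1.30, ALT1 at -1.92 and PUT1 at 2.12. That setting adds the 0 min gap between the cultures, and 77.9% of all genes passed in it in the early window and 76% in the middle one. Passing there thus lends these 5 no support. GLY1 already differed at 0 min, at 10.9 in heat and 12.9 in cold. Of the 7, PRO1 and SER3 are members of the biosynthetic set and the other 5 belong to the further lists. The control arrays cancel out of a difference between heat and cold and enter only the estimate of its spread. The heat culture had its own amplification kit, whose part in these differences was not tested.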

How the results depend on the processing

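The 0 min arrays decided most. Without that baseline the members past the threshold numbered 34 in heat early (68%, beside 73.3% of all genes), 7 in cold early (14% and 32.7%), 29 in heat middle (58% and 76%), 12 in cold middle (24% and 41%), 31 in heat against cold early (62% and 77.9%) and 34 in heat against cold middle (68% and 76%). By construction this setting adds the 0 min difference of each series to the change. It turned the sign of 22 named values, 12 of which passed the threshold there. In heat early BAT1 was at 0.47, HIS5 at -3.40, LEU4 at 0.38, PRO1 at 0.78 and SER3 at 0.42. In heat middle BAT2 was at 1.03, HOM3 at -4.28 and LEU4 at 0.54. In heat against cold early BAT1 was at 0.50 and LEU4 at 0.38. In heat against cold middle BAT2 was at 1.13 and LEU9 at -1.36. The other 10 passed in neither fit, namely LYS20 in heat early (0.20), heat middle (0.43) and heat against cold middle (0.32), ORT1 in cold early (0.46) and heat middle (0.39), SER1 in cold early (0.09) and heat middle (0.20), HIS6 in cold early (0.29), and ARO3 (0.04) and BAT2 (-0.10) in cold middle. Relative to the series' own start without the control, 1 member (HIS6) passed in cold middle, which is 2% beside 6.74% of all genes. With a window of 2 to 24 h, 6 members passed in cold middle against early (12%, beside 15% of all genes). In heat against cold middle 0 members passed (0.11% of all genes), and the median of the members in control middle against early turned to -0.10. That window takes in the 24 h control array, where the members had a fitted median of -0.63 against the early arrays. The causes of the other differences between settings were not tested.

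Leaving out each time in turn gave 0 to 4 members in cold middle (0% to 7.67% of all genes) and 0 to 1 in heat middle against early (0.0184% to 2.73%). It gave 1 to 14 in cold middle against early (4.4% to 32.7%), 0 to 13 in heat against cold early (2.99% to 23.2%) and 0 to 7 in heat against cold middle (0% to 11.3%). Renewed quantile normalization, leaving out suffixed probe sets or dim genes, and a mean trend with robust fitting left 10 members in cold middle against early, the same 10. No member had a suffixed probe set or lay under the background bound, so leaving those out could not change a member's value. Leaving out the 24 h arrays could not do so in that comparison either, since they have terms of their own. Of 1983 named values under alternatives, 1828 kept their direction and their side of the threshold, 28 no longer passed and 53 newly passed. The 1983 include settings that could not change a member's value. The sign turned in 74, in 12 with a value past the threshold and in 62 with neither value past it. The median over members kept its sign in every alternative for 8 of the 10 comparisons and not for heat against cold middle (-0.20 to 0.40) or control middle against early (-0.10 to 0.11). Single arrays per time and the 0 min array limit what these data can separate.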
